A study of Mus musculus with 10 samples.

Results

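The activin and inhibin subunit genes Inhba, Inhbb, Inhbc and Inhbe, the activin-binding proteins Fst and Fstl3, and the receptor genes Acvr1, Acvr1b, Acvr2a and Acvr2b were taken by symbol from a table of transcript levels in regenerating mouse liver. All 10 genes were present, each at 1 locus, among 23535 loci with values. The table covered 6 libraries of liver taken 40 h after partial hepatectomy, an operation that removes most of the liver, from mice of a mixed C57/B6 and 129 strain at postnatal day 90. Both groups carried the floxed allele Arid1a Fl/Fl. The 3 WT libraries came from mice without Cre. The 3 KO libraries came from mice that also carried Alb-cre, a transgene that expresses Cre from the albumin promoter in hepatocytes. Liver cells in which Cre has never acted, in the cell or its precursors, keep the gene. The Arid1a product is a component of SWI/SNF (BAF) chromatin remodellers. A further 4 libraries from livers before hepatectomy were not analysed here, so no response to the operation is given. Whether each library came from its own mouse is not in the labels, so each p-value reflects only how these libraries varied.

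Activins are secreted dimers of beta subunits. Inhba and Inhbb encode the subunits of activin A, B and AB, whereas Inhbc and Inhbe encode the beta C and beta E subunits, which are made mainly by hepatocytes. An activin dimer binds a type II receptor (encoded by Acvr2a or Acvr2b), which then recruits and phosphorylates a type I receptor such as the product of Acvr1b (ALK4), and the signal passes to SMAD2 and SMAD3. The product of Acvr1 (ALK2) mainly serves bone morphogenetic proteins (BMPs), which use the same type II receptors. Follistatin (Fst) and follistatin-like 3 (Fstl3) bind activins and keep them from the receptors. In liver, activin A restrains hepatocyte proliferation, and follistatin promotes growth after hepatectomy.

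Levels are given as FPKM, a fragment count divided by transcript length and library size. Genes can therefore be compared with one another as far as the transcript lengths used are right. Differences between groups are KO minus WT on log2(FPKM + 1), tested in limma with Benjamini-Hochberg adjustment over the 10956 genes with a mean of at least 1 FPKM, at a threshold of 0.05. Of the 10 members, 9 were tested and Fstl3 was under the filter. Summed FPKM lay between 409142 and 495209 per library, and total read numbers were not given in the sources used here. Depth relative to WT replicate 1, estimated from steps between low values, was 0.844 to 1.21. Arid1a itself was 8.45 to 8.68 FPKM in the WT libraries and 4.41 to 6.15 in the KO libraries, with no overlap, and its log2 difference of -0.59 missed the threshold (adjusted p = 0.207). The hepatocyte marker Alb was between 16226 and 29437 FPKM in all 6 libraries. The 3 T and NK cell markers together reached at most 0.787 FPKM.

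Inhbc and Inhbe are the members with the highest levels and lie next to each other on chromosome 10, so the regions around their start sites are shown first. In the table, Inhbc spans chr10:127356326-127370544 and Inhbe chr10:127349402-127351772 (mm10), with 4553 bases between them. In GENCODE vM21 both are on the minus strand, and each has 2 exons in its longest coding transcript. The antisense gene Gm47200 overlaps both of them there. Whether the libraries kept strand was not stated in the labels, so reads from it cannot be told apart from theirs. Of the 10 members, 9 overlap another gene in that annotation, all except Inhbb. The sequences below run 5′ to 3′ along the gene, from 250 bases before to 50 bases after the start site of RefSeq (GRCm38.p6, minus strand), at chr10:127370499-127370798 for Inhbc and chr10:127351799-127352098 for Inhbe. Capitals mark matches to 3 motifs searched on both strands: the C/EBP-ATF response element TGATGNAA, the SMAD element CAGAC and the CCAAT box CCAAT.
Inhbc: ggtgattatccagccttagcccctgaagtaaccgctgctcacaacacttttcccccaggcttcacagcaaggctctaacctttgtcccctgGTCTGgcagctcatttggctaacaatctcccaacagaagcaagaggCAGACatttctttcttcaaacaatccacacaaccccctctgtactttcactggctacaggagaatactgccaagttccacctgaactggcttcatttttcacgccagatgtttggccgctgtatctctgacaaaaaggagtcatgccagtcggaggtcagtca
Inhbe: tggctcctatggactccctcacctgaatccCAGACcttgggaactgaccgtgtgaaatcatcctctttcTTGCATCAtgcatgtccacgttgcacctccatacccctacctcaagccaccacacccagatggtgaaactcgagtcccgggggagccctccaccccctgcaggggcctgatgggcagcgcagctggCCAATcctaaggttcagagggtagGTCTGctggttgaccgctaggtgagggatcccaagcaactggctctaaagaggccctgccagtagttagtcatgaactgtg
The Inhbe run held 1 match to the C/EBP-ATF element, TTGCATCA on the opposite strand, starting at base -181 from the start site. It also held a CCAAT box at -55 and SMAD elements at -220 and -31. The Inhbc run held SMAD elements at -159 and -113 and no match to the other motifs. Among 32851 promoters of the same length, 3.97% held the C/EBP-ATF element, 49.6% the SMAD element and 37.4% the CCAAT box. RefSeq promoters were found for 9 of the 10 members, all except Fst. Inhbe was the only one of these 9 with the C/EBP-ATF letters, and 5 held the SMAD letters. GENCODE places the Inhbe start 2563 bases further upstream than RefSeq, so the run shown is the promoter of the RefSeq model only.

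The beta C subunit gene Inhbc was 51.6, 61.2 and 40.4 FPKM in the WT libraries (replicates 1, 2 and 3, the order used throughout) against 14.1, 16.8 and 9.08 in the KO libraries. Every KO library lay well under every WT library, with no overlap. The mean was 51.1 ± 10.4 in WT against 13.3 ± 3.93 in KO (SD, n = 3 each), so WT was 3.83 times KO. The log2 difference was -1.88 (SE 0.26). Its p ranked 23 among all tested genes, and limma's adjusted p of 0.0957 missed the threshold. Without KO replicate 2 the difference was -2.06 and passed (adjusted p = 0.0267), in a fit that called 211 genes in place of 13. With any other library left out it did not pass, with an adjusted p of 0.164 to 0.385, the highest without WT replicate 1. In bulk liver, fewer cells that express a gene and less RNA per cell cannot be told apart. The hepatocyte markers Alb, Apoa1, Ttr and Hnf4a had a median log2 difference of 0.06, and their summed level was 30538 to 36929 FPKM in WT and 28681 to 36995 in KO.

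The beta E subunit gene Inhbe was 28.4, 14.4 and 18.6 FPKM in the WT libraries against 24.1, 47.7 and 13.1 in the KO libraries. The groups overlapped, since KO replicate 2 was the highest of all 6 libraries and KO replicate 3 the lowest. The mean was 20.5 ± 7.15 in WT against 28.3 ± 17.7 in KO (log2 difference 0.32, SE 0.46, adjusted p = 0.758). Without KO replicate 2 the difference was -0.14, the opposite sign. KO replicate 2 also differed from the other KO libraries in proliferation genes: the summed FPKM of 12 such genes, among them Ube2c and Aurka, was 331, 15.5 and 550 in KO replicates 1, 2 and 3 and 9.71 to 50.6 in WT. The part of this in the Inhbe values was not tested. For Inhbc, by contrast, KO replicate 2 lay with the other KO libraries, under all WT libraries.

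**Figure D1:**
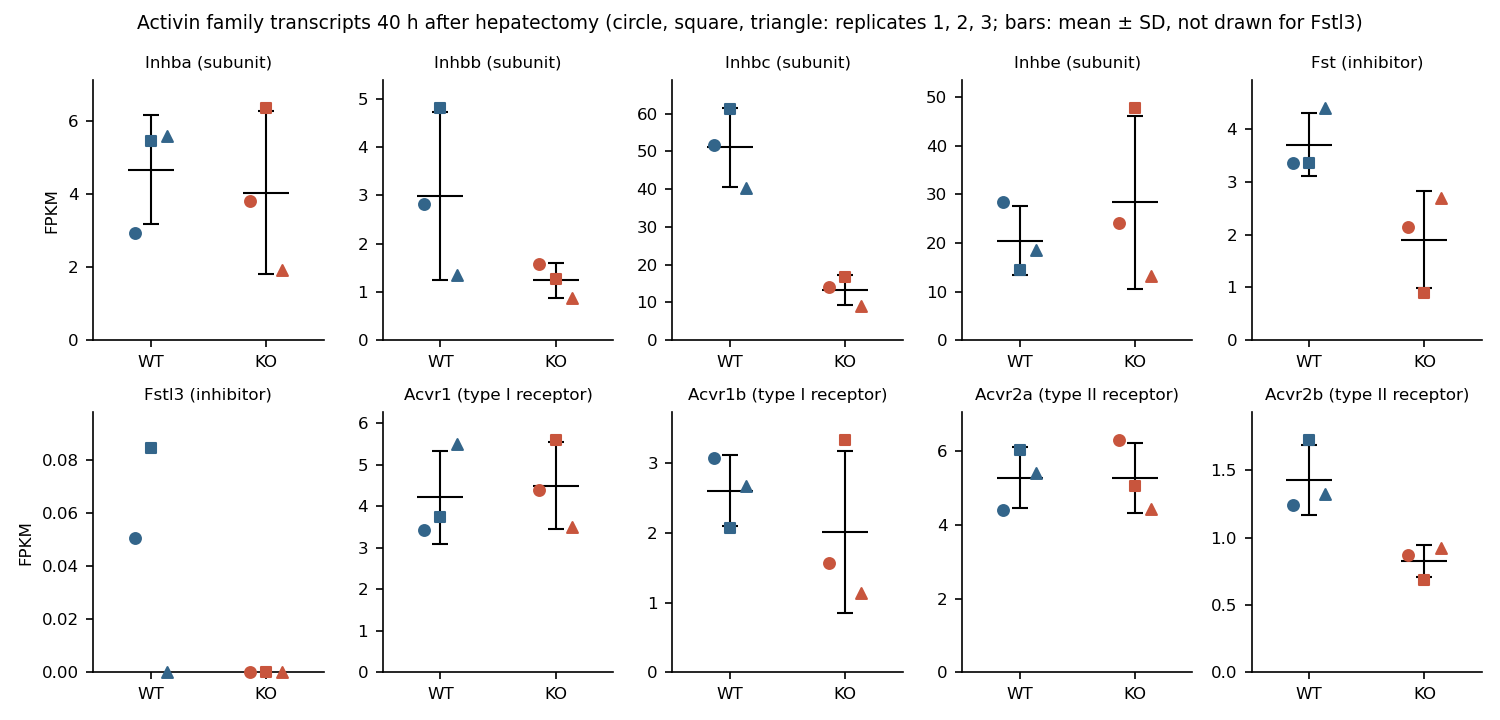
FPKM (vertical axis, linear, from 0) of the 10 genes in each of 6 libraries, with symbols for replicates 1 to 3 and the mean ± SD of 3 libraries; Fstl3 has no mean because most of its values are 0. Inhbc, Fst and Acvr2b are the panels in which WT and KO do not overlap, and Inhbe shows the wide spread within KO, from 13.1 to 47.7.

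Because a ratio within a library does not move with the scaling of that library, the balance of the 2 neighbours was also compared. Inhbe over Inhbc was 0.550, 0.236 and 0.460 in the WT libraries against 1.70, 2.84 and 1.45 in the KO libraries. By FPKM, Inhbc was therefore the higher of the pair in all 3 WT libraries and Inhbe in all 3 KO libraries. Which gene is higher depends on the transcript lengths used for FPKM, which are not given here. The difference of the log2 ratio between groups does not, if those lengths are the same in all libraries. On the log2 scale the ratio was -1.36 ± 0.644 in WT against 0.94 ± 0.507 in KO (SD, n = 3 each), a difference of 2.29. The two-sided exact permutation p was 0.1, the smallest that 3 against 3 libraries allow. With any 1 library left out the difference was between 1.93 and 2.54.

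As a share of the 4 subunit transcripts, Inhbc was 64.2% ± 6.10 in WT against 30.7% ± 6.69 in KO, and Inhbe 26.0% ± 8.36 and 58.0% ± 7.20 (SD, n = 3 each; exact permutation p = 0.1 for each). Shares of a single sum move together, so these are not separate results. The share of Inhbe rose while its own level overlapped between groups. Inhbc and Inhbe together made up 90.3% ± 2.70 of the subunit transcripts in WT against 88.6% ± 0.921 in KO, a difference within the spread between libraries (exact permutation p = 0.4). The hepatic pair thus made up most of the subunit transcripts in every library, while Inhbc led it in WT and Inhbe in KO. The summed level of the 4 subunits was 85.7, 86.0 and 65.9 FPKM in the WT libraries against 43.6, 72.2 and 25.0 in the KO libraries (exact permutation p = 0.2), and KO replicate 2 lay within the WT range.

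**Figure D2:**
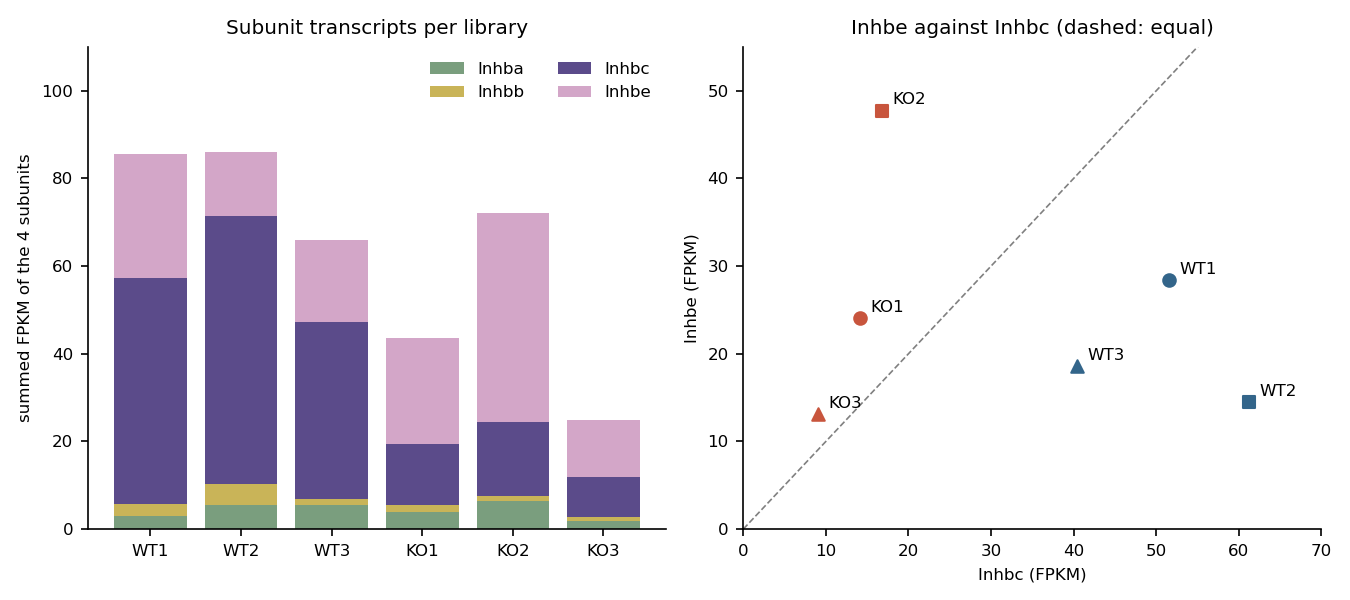
Left, stacked FPKM of the 4 subunit genes in each library, from 0; right, Inhbe against Inhbc in FPKM, 1 point per library, with a dashed line at equal levels. The 3 WT libraries lie below the line and the 3 KO libraries above it, and KO2 has the largest Inhbe share, 66.1%.

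The 5 other loci whose span lies at least partly within 60 kb of the Inhbe-Inhbc pair were read beside them. R3hdm2, 19.8 kb from the Inhbc start site on the side away from Inhbe, was 14.5 ± 2.14 FPKM in WT against 15.6 ± 2.55 in KO (SD, n = 3 each; adjusted p = 0.814). Mars, which encodes methionyl-tRNA synthetase, was 17.1 ± 1.35 and 16.8 ± 1.14. Ddit3, which encodes the stress-induced factor CHOP, was 2.65, 2.88 and 2.42 in the WT libraries against 3.80, 6.71 and 4.93 in the KO libraries. All KO values of Ddit3 lay above all WT values, with a log2 difference of 0.73 (SE 0.20) that missed the threshold (adjusted p = 0.221). Arhgap9 and the Hedgehog factor gene Gli1 were below the filter, and Gli1 did not exceed 0.0307 FPKM. Among the 5 tested loci of this stretch, KO lay below WT without overlap in Inhbc only, beside 5.44% of all tested genes. It lay above in Ddit3 only, beside 16.7%. The stretch was placed around Inhbc and Inhbe after their values were seen, so it is no test of position.

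**Figure D3:**
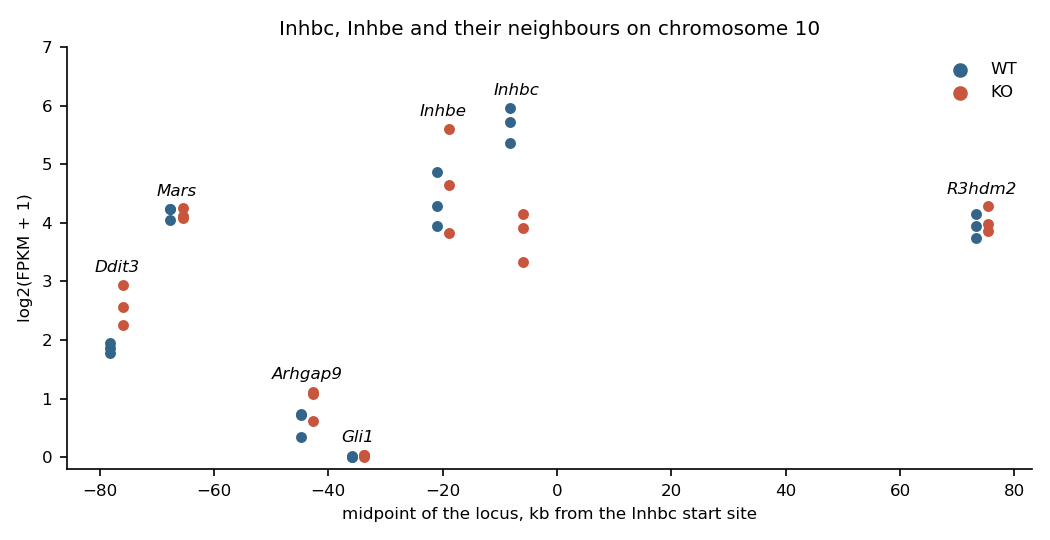
Levels as log2(FPKM + 1) in WT and KO libraries, by the distance in kb of each locus's midpoint from the Inhbc start site. WT and KO points separate for Inhbc (KO lower) and Ddit3 (KO higher), and mix for Inhbe, Mars and R3hdm2.

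The transcripts most like Inhbc across the libraries were found by Pearson's r of log2(FPKM + 1), as a description over 6 libraries that fall into 2 groups. Predicted, unnamed, small-RNA and multi-symbol loci were left out of the ranking. The 3 highest of the rest were Rdh9, a retinol dehydrogenase gene, Phf15 and Mfsd2a, a lysophosphatidylcholine transporter gene, with r of 0.996, 0.996 and 0.992. Rdh9 was 72.8 ± 6.33 FPKM in WT against 29.5 ± 6.94 in KO, and Mfsd2a 39.0 ± 7.75 and 7.51 ± 3.01 (SD, n = 3 each). Their log2 differences, -1.30 and -2.27, missed the threshold (adjusted p = 0.123 and 0.0621 in limma). Phf15 was much lower in level, at a mean of 1.57 FPKM in WT libraries and 0.863 to 1.09 in KO libraries.

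Inhba and Inhbb, the subunits of activin A and activin B, were far less abundant. Inhba (chr13:16014475-16027211) was 2.94, 5.46 and 5.59 FPKM in the WT libraries against 3.82, 6.36 and 1.92 in the KO libraries. The KO libraries spanned the whole WT range, and the log2 difference was -0.23 (SE 0.37, adjusted p = 0.782). Without KO replicate 3, which had the lowest value, it was 0.11. Inhbb (chr1:119415465-119422248) was 2.82, 4.81 and 1.34 FPKM in the WT libraries against 1.57, 1.27 and 0.864 in the KO libraries. Only WT replicate 3 reached into the KO range, and the means were 2.99 ± 1.74 and 1.24 ± 0.355 (SD, n = 3 each; log2 difference -0.75, SE 0.34, adjusted p = 0.346). The Inhbb difference leaned on WT replicate 2, without which it was -0.43. Inha, the alpha subunit gene that turns a beta subunit into an inhibin, was listed at 0 in 5 libraries and at 0.205 FPKM in KO replicate 2.

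Markers of the non-parenchymal cells that can also make activin subunits were read in the same libraries. The summed level of 7 stellate cell and fibroblast markers was 105 to 117 FPKM in WT and 83.4 to 134 in KO. That of 5 Kupffer cell and macrophage markers was 38.1 to 53.2 and 38.5 to 62.5, and that of 5 sinusoidal endothelial markers 32.6 to 52.7 and 34.9 to 53.3. None of these lists held a member at 0 in all libraries. None of their 17 genes passed the threshold in limma, and 1, Reln, had an unadjusted p under 0.05, beside 15.2% of all tested genes. Most of the stellate sum was Dcn (80.4 ± 6.06 FPKM in WT and 70.2 ± 24.5 in KO). Of the 7 stellate markers, 4 had a difference above 0 and 3 below. Reln was higher in every KO library (9.63 ± 0.817 and 17.7 ± 3.75), and the mean of Lrat was lower in KO (3.02 ± 0.295 and 1.88 ± 0.852). Cholangiocyte markers summed to 2.11 to 4.32 FPKM in WT and to at most 3.79 in KO, and mesothelial markers to 1.42 to 2.28 and 1.04 to 1.49. In the cholangiocyte and in the mesothelial list 1 gene each was lower in every KO library than in every WT library. This held for 5.44% of all tested genes. The other genes of both lists overlapped between groups, and the mean of Epcam was higher in KO (0.114 FPKM in WT and 0.326 in KO). Sox9 was 1.17 ± 0.585 and 0.225 ± 0.155 FPKM, and Msln 0.912 ± 0.286 and 0.523 ± 0.127 (SD, n = 3 each), both under the filter. The part of these cell types in the subunit levels was not tested.

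Of the 2 activin-binding proteins, follistatin was the only one above the filter. Fst (chr13:114452262-114458730) was 3.36, 3.36 and 4.40 FPKM in the WT libraries against 2.14, 0.887 and 2.69 in the KO libraries. All KO values lay below all WT values. The mean was 3.71 ± 0.602 in WT against 1.91 ± 0.923 in KO (SD, n = 3 each). The log2 difference, -0.74 (SE 0.27), missed the threshold (adjusted p = 0.30 in limma). KO replicate 2 had the lowest value, and without it the difference was -0.46. Fst overlaps the antisense gene Gm47040 in GENCODE vM21. Fstl3 (chr10:79777274-79782630) was 0.0506 and 0.0844 FPKM in WT replicates 1 and 2 and listed at 0 in the other 4 libraries, a level at which no comparison was made.

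Follistatin relative to the activins it binds was compared as well. Fst plus Fstl3 over Inhba plus Inhbb was 0.593, 0.335 and 0.635 in the WT libraries against 0.397, 0.116 and 0.964 in the KO libraries. The KO libraries held both the lowest and the highest ratio. Against all 4 subunits the log2 ratio was -4.40 ± 0.429 in WT against -4.64 ± 1.58 in KO (SD, n = 3 each; exact permutation p = 0.9). Neither ratio differed beyond the spread of the libraries.

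Among the receptors, only Acvr2b had groups that did not overlap. Acvr2b (chr9:119402501-119433506), a type II receptor gene, was 1.24, 1.73 and 1.32 FPKM in the WT libraries against 0.873, 0.689 and 0.921 in the KO libraries. The log2 difference was -0.41 (SE 0.18, adjusted p = 0.335). The gene passed the filter through its WT values, since its KO mean of 0.828 ± 0.122 (SD, n = 3) was under 1 FPKM, and at this level log2(FPKM + 1) understates the change. With a pseudocount of 0.1 the difference was -0.72. Acvr2a (chr2:48814109-48903264), the more abundant type II receptor gene, was 4.39, 6.02 and 5.40 FPKM in the WT libraries against 6.29, 5.06 and 4.43 in the KO libraries. The Acvr2a groups overlapped almost fully, with a log2 difference of -0.0046 (SE 0.17, adjusted p = 0.99) whose sign changed with the library left out. The Acvr2a locus overlaps that of Orc4 in the table, and Acvr2b overlaps the antisense gene Gm47320 in GENCODE vM21, so reads in those overlaps are uncertain.

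The share of Acvr2a in the 2 type II receptor transcripts was 78.0%, 77.7% and 80.3% in the WT libraries against 87.8%, 88.0% and 82.8% in the KO libraries. Every KO library had the higher share, by 7.54 percentage points in the mean (exact permutation p = 0.1, the smallest possible). Acvr2a itself had a log2 difference of -0.0046, so the share restates the Acvr2b difference and is not a separate result. It carries the same limits, a KO mean of Acvr2b under 1 FPKM and the overlap of Acvr2a with Orc4. With any 1 library left out this difference was 6.64 to 9.24.

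Neither type I receptor gene separated the groups. Acvr1 (chr2:58446438-58566828) was 3.43, 3.73 and 5.49 FPKM in the WT libraries against 4.38, 5.59 and 3.51 in the KO libraries, with overlapping groups and a log2 difference of 0.08 (SE 0.21, adjusted p = 0.875). Its sign changed after rescaling (-0.05 by median of ratios). Acvr1b (chr15:101174125-101212601) was 3.08, 2.07 and 2.67 FPKM in the WT libraries against 1.57, 3.33 and 1.14 in the KO libraries. KO replicates 1 and 3 lay under all WT libraries and KO replicate 2 above them (log2 difference -0.32, SE 0.28, adjusted p = 0.602). Without KO replicate 2 the Acvr1b difference was -0.61 (adjusted p = 0.195), and without KO replicate 3 it was -0.10. Acvr1b made up 38.6% ± 7.74 of the 2 type I transcripts in WT against 29.4% ± 6.93 in KO (SD, n = 3 each; exact permutation p = 0.3).

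By level, the order in WT was Inhbc, Inhbe, Acvr2a, Inhba, Acvr1, Fst, Inhbb, Acvr1b, Acvr2b and Fstl3. Inhbc stood above Inhbe, Inhbe above Acvr2a, Acvr1b above Acvr2b and Acvr2b above Fstl3 without overlap between libraries, and all other neighbours in that order overlapped. In KO the order was Inhbe, Inhbc, Acvr2a, Acvr1, Inhba, Acvr1b, Fst, Inhbb, Acvr2b and Fstl3. There the ranges of Inhbe and Inhbc overlapped when libraries were pooled, although Inhbe was higher within each library.

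Taking the 9 tested members as a list, 7 had a log2 difference below 0 and 2 above, with a median of -0.32 beside 0.15 for all tested genes. None passed the threshold in limma, where 0.119% of all tested genes did, and 2 (Inhbc and Fst) had an unadjusted p under 0.05, as did 15.2% of all tested genes. In 3 members (Inhbc, Fst and Acvr2b) every KO library was below every WT library, which held for 5.44% of all tested genes, and after median-of-ratios rescaling the count was again 3, beside 9.9%. Acvr2b passed the filter through its WT values, and among the 8 tested members with both group means at or above 1 FPKM the count was 2. In 0 members was every KO library above every WT library, beside 16.7%.

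**Figure D4:**
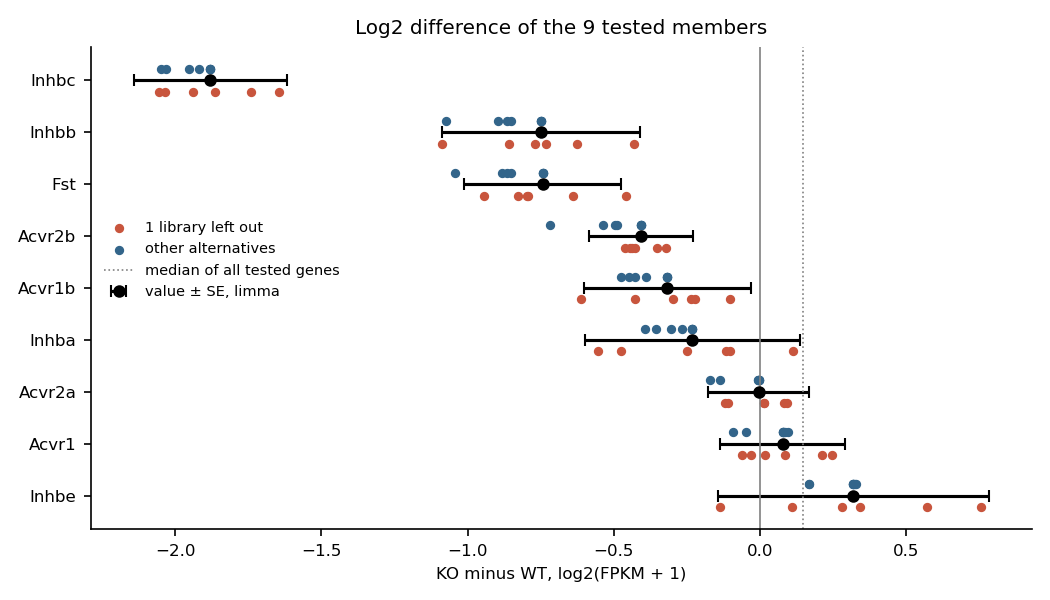
Log2 difference (KO minus WT, log2(FPKM + 1)) of the 9 tested members, with the SE from limma (black), the values with 1 library left out (red) and under the other alternatives (blue). Inhbc stays between -2.06 and -1.65, Inhbb, Fst, Acvr2b and Acvr1b stay below 0, and Inhba, Acvr2a, Acvr1 and Inhbe lie on both sides of 0.

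The remaining activin and BMP pathway was read from 7 lists holding 76 genes, of which 48 were tested. None passed the threshold in limma (smallest adjusted p 0.188), 7 had an unadjusted p under 0.05, beside 15.2% of all tested genes, and their median log2 difference was 0.13, beside 0.15 for all tested genes. KO lay below WT without overlap in 3 of the 48, beside 5.44% of all tested genes, and above in 6, beside 16.7%. These shares are near those of all tested genes. A group mean was under 1 FPKM in 5 of the 48, which passed the filter through the other group and include 1 of the 3 and 1 of the 6. Among the other ligands, 7 of 13 were tested, 6 with a difference above 0 (median 0.24, beside 0.15 for all tested genes). Bmp6, a ligand that controls hepcidin, was 0.730 ± 0.193 FPKM in WT against 1.37 ± 0.292 in KO (SD, n = 3 each), so it passed the filter through its KO values. Among co-receptors and extracellular inhibitors, 6 of 17 were tested, 3 in each direction.

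Of 8 other receptors of the family, 4 were tested, and the TGF-beta receptor gene Tgfbr2 was 4.60 ± 0.660 FPKM in WT against 6.73 ± 1.05 in KO. The alternative type I receptor of activins, Acvr1c (ALK7), which can serve beta E dimers, did not exceed 0.0523 FPKM in any library. Of 18 SMAD genes and regulators, 15 were tested, 11 with a difference above 0 and 4 below. The median of these 15 was 0.11, beside 0.15 for all tested genes. The activin effectors Smad2 and Smad3 had log2 differences of -0.12 and -0.04, and the BMP effector Smad5 was 7.03 ± 0.373 and 5.19 ± 0.238 FPKM. Fkbp1a, whose product holds type I receptors inactive, was 21.2 ± 1.69 and 34.8 ± 9.82. All 4 proprotein convertase genes, whose products can cleave activin precursors, were tested. Pcsk5 was 6.19, 5.08 and 4.42 FPKM in the WT libraries against 8.63, 8.48 and 11.7 in the KO libraries (adjusted p = 0.188), and Furin 63.9 ± 4.60 and 70.3 ± 12.9.

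Of 12 SMAD2/3 target genes, 9 were tested, 5 with a difference above 0 and 4 below. Their median was 0.10. Cdkn1a, which encodes the CDK inhibitor p21 and is also a p53 target, was 8.25, 27.8 and 16.3 FPKM in the WT libraries against 43.1, 40.2 and 49.6 in the KO libraries (log2 difference 1.44, SE 0.39, adjusted p = 0.22). Smad7, the feedback inhibitor, was 3.28 ± 0.734 and 4.15 ± 0.801. Of 8 SMAD1/5 target genes 7 were tested, 6 above 0, with a median of 0.27, beside 0.15 for all tested genes. Id1 was 11.9 ± 5.58 and 25.2 ± 9.83, and the hepcidin gene Hamp 1352 ± 760 and 1991 ± 336.

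Because Inhbe is known as an ATF4 pathway gene in hepatocytes, 16 stress response genes were read too. Of these 13 were tested, 9 with a difference above 0 and 4 below. Their median was 0.36, beside 0.15 for all tested genes. None was called in limma, where 0.119% of all tested genes were, and 4 had an unadjusted p under 0.05, beside 15.2%. KO lay above WT without overlap in 3, beside 16.7% of all tested genes, and below in 1, beside 5.44%. Sesn2 was 2.55 ± 0.436 FPKM in WT against 4.57 ± 0.469 in KO, and Atf3 0.732 ± 0.206 and 1.79 ± 0.113 (SD, n = 3 each). Atf3, which is among the 4 with an unadjusted p under 0.05, passed the filter through its KO values. A group mean was under 1 FPKM in 2 of the 13 tested genes, Atf3 included. In the opposite direction, Asns, which encodes asparagine synthetase, was 15.8 ± 3.40 and 7.44 ± 3.17. The summed level was 920 FPKM in KO replicate 2, the library with the highest Inhbe, and 347 to 412 in the other 5. That sum was carried by 1 gene, Atf5, with 724 FPKM in KO replicate 2 and 117 to 219 elsewhere. Without Atf5 the 15 other genes summed to 196 FPKM in KO replicate 2, within the 180 to 234 of the other libraries. The largest part of that remainder was Cth, which was lowest in KO replicate 2 (66.8 FPKM, 90.1 to 167 elsewhere). Psat1 was highest there (26.5 FPKM, 0.539 to 5.81 elsewhere), so the sum does not speak for each gene. Phgdh, Atf4, Ddit3, Ddit4, Trib3, Fgf21 and Vldlr were also highest in KO replicate 2. Trib3 and Vldlr were under the filter, and Fgf21 was nearly as high in WT replicate 2. The remaining genes of the list were not highest in KO replicate 2. How these values relate to Inhbe was not tested.

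**Figure D5:**
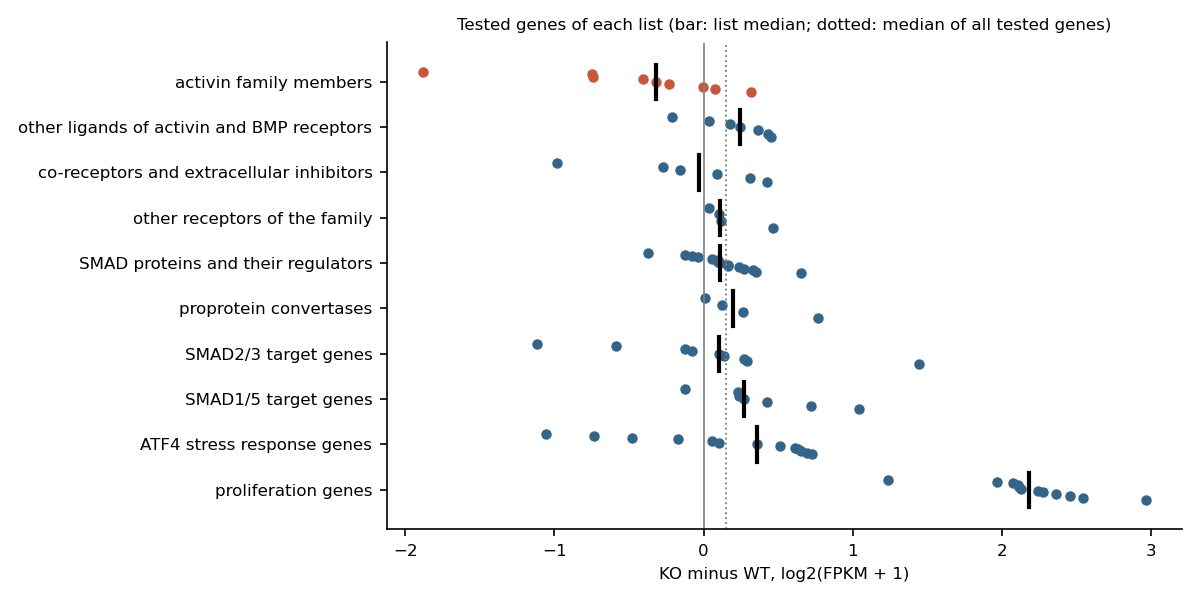
Log2 differences (KO minus WT, log2(FPKM + 1)) of the tested genes in the activin family and in each pathway, stress and proliferation list, with the list median as a bar. The family's median of -0.32 lies left of the dotted median of all tested genes, 0.15, the medians of the 7 pathway lists lie between -0.03 and 0.27, and the proliferation list lies furthest right, at 2.18. All 12 proliferation genes overlap between groups, and none was called in limma, where 0.119% of all tested genes were. Of the 12, 1 had an unadjusted p under 0.05 in limma, beside 15.2% of all tested genes.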

How the data were processed

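The authors deposited 1 FPKM value per gene locus and library, per the file headers. TopHat, edgeR, mm9 and mm10 appear in the submitters' processing notes, with no roles; the members' positions fit mm10. RNA was extracted with Trizol and a miRNeasy kit, per the labels' protocols. Of 23847 loci, 312 marked LOWDATA in all libraries were left out. Zeros, listed as 0.001, were set to 0. FPKM divides by library total, so a few abundant transcripts can shift all other values.

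Values were analysed as log2(FPKM + 1) without rescaling in limma 3.58.1 under R 4.3.3 (a linear model with trended variance moderation, two-sided), with no covariate besides genotype, over the 10956 loci with a mean of at least 1 FPKM. Ratios between members were compared by an exact two-sided permutation test over the 20 assignments. The fit was tested on simulated data. Alternatives were pseudocounts of 0.1 and 0.5, no filter, a filter of 0.1, median-of-ratios and quantile scaling, no trend, a replicate block, and each library left out. The members and lists were chosen with earlier results of these data known. Every member is named, and from each list at most 4 genes with the smallest p are given. The 3 loci most like the member with the smallest p are also given, with predicted, unnamed, small-RNA and multi-symbol loci left out. For stress, proliferation and marker lists the limit was 2 genes. Inha, Acvr1c, Smad2, Smad3, Asns, Atf5, Cth, Psat1, Alb, Dcn, Sox9, Epcam and Msln were named outside that rule, after their values were seen. So were the neighbours within 60 kb of Inhbc and Inhbe, and Atf4, Ddit3, Ddit4, Trib3, Phgdh, Fgf21 and Vldlr of the stress list. Adgre1 and Jchain were matched as Emr1 and Igj, and Ly6g was not matched. Promoters come from RefSeq GRCm38.p6. Total depth is unknown, so no counting interval is given. Some genes of the lists are not reported here by name.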

Additional observations from a re-analysis of the deposited data

How the results depend on the processing

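The number of genes called, 13 (2 higher and 11 lower in KO), was 6 with no filter and 47 with a replicate block, and 0 to 211 with 1 library left out: 0 without WT replicate 1 (940 had an unadjusted p under 0.05), 2 with WT replicate 2 left out, 3 without WT replicate 3, 1 without KO replicate 3 and 211 without KO replicate 2 (171 higher, 40 lower). After median-of-ratios scaling it was 13 (0 higher) and after quantile scaling 14 (0 higher); the median of all genes moved from 0.15 to 0.01 and -0.0039. The number of members called, 0, was 1 with the replicate block and 0 to 1 with 1 library left out; in both cases the gene was Inhbc, called with the block (adjusted p = 0.0311) and without KO replicate 2. The block rests on replicate numbers only: the deviations of same-numbered libraries correlated at -0.08, 0.16 and 0.16, so the numbers were not taken as pairs. The adjusted p of Inhbc ranged from 0.0267 to 0.385, and its difference kept its direction in all 14 alternatives, as did those of Inhbb, Fst, Acvr1b and Acvr2b. Acvr1 was -0.0494 after median-of-ratios and -0.0912 after quantile scaling. With 1 library left out, Inhba ranged from -0.56 to 0.11, Inhbe from -0.14 to 0.76, Acvr1 from -0.0623 to 0.246, Acvr2a from -0.12 to 0.0921, and the log2 ratio of follistatins to subunits from -0.95 to 0.62; the causes were not tested. The other 4 ratios kept their direction; with the block their smallest possible p is 0.25. Total depth is unknown, so how many reads stand behind the members near or under 1 FPKM cannot be given.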
